A study of Homo sapiens with 6 samples.

Results

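YAP1 and WWTR1 (the gene of TAZ), the DNA-binding partner TEAD1 and 7 genes tied to them as targets or inhibitors were followed in A549 cells, an established line of human lung adenocarcinoma, after knockdown of CEP20, a protein of centrioles and centriolar satellites. The members were chosen by gene symbol and were CCN1 (formerly CYR61), CCN2 (formerly CTGF), ANKRD1, AMOTL2, AJUBA, LATS2 and AXL beside the 3 factors, 10 genes of 60624 in the deposited table. All 10 reached the mean of 1 TPM needed for testing, as did 14778 genes in all. RNA was sequenced from 3 siCEP20 samples, transfected with siRNA against CEP20, and 3 siCTR samples, transfected with control siRNA, each for 3 days. The labels give the genotype as control or CEP20 knockdown, and name no other change that the 6 samples share. The labels do not name which CEP20 siRNA was used, list a plasmid transfection as the treatment of all 6 samples, and do not say whether replicates are separate cultures, so that p-values measure the spread between these samples, which may be technical.

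YAP1 and TAZ are transcriptional coactivators without a DNA-binding domain of their own, and reach chromatin mainly through TEAD factors. The Hippo kinases STK3 and STK4 act on LATS1 and LATS2, which phosphorylate YAP1 and TAZ and keep them in the cytoplasm. Cell contacts and actin tension act on this step. Several target genes, such as LATS2 and AMOTL2, encode inhibitors of the coactivators. Phosphorylation and location of the proteins are not measured by RNA-seq, which gives RNA levels only.

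Levels are given in TPM, in which read numbers are divided by transcript length and each library is set to the same total, so that levels of different genes within a library can be compared. TPM is a share of the library, and a changed level per cell and a changed share cannot be told apart. Sequencing depth is unknown, since TPM keeps none. The targeted gene was lower in siCEP20 samples, with CEP20 at 31.6 ± 3.10 TPM in siCTR and 16.2 ± 1.01 TPM in siCEP20 samples (SD, n = 3 each). Replicates of a group had Spearman correlations of at least 0.986 over the tested genes. Across the 14778 tested genes the median shift was 0.13 on the log2 scale, with 1659 called higher and 682 lower (70.9% higher). The shares higher were 44.8% with median-of-ratios scaling, 47.6% with quantile normalization and 51.7% once length and GC content of transcripts were corrected for, so member values are also given relative to all tested genes or under these scalings. Of 5 epithelial markers, KRT7, KRT8 and KRT18 lay at 1535 to 4506 TPM, CDH1 at 11.1 to 24.1 TPM and EPCAM at 0.834 to 3.85 TPM. All 5 were higher in siCEP20 samples at an adjusted p-value under 0.05 from limma, against 30.2% of all tested genes. Relative to the median shift, KRT7 and KRT18 rose by only 0.03 and 0.09 on the log2 scale, and KRT8, CDH1 and EPCAM by 0.40, 0.78 and 0.97. Exons of KRT8 and KRT18 overlap each other on opposite strands, and KRT7 overlaps KRT87P, at a mean of 260 TPM. The summed level of the 5 markers was 6957 to 7264 TPM in siCTR and 8384 to 8620 TPM in siCEP20 samples. Of 4 lung lineage markers, NKX2-1, SFTPC and SFTPB were at or near 0. NAPSA was at 1.92 ± 0.311 TPM in siCTR and 1.06 ± 0.495 TPM in siCEP20 samples, with overlapping groups. Its log2 fold change of -0.53 did not pass (limma adjusted p = 0.0796), and it overlaps NR1H2, at a mean of 131 TPM, on the opposite strand. The sum of the 4 was 1.68 to 2.37 TPM in siCTR and 0.638 to 1.59 TPM in siCEP20 samples. Of 5 fibroblast markers, COL1A1 rose, DCN was at 0 and COL3A1, LUM and PDGFRB were at or near 0, with sums of 5.39 to 6.15 TPM in siCTR and 17.7 to 20.2 TPM in siCEP20 samples. The sum of 3 endothelial markers stayed at or below 0.109 TPM, and that of 4 immune markers at or below 1.06 TPM, all from LYZ apart from 0.0183 TPM of PTPRC in siCTR replicate 2. The part of these shifts in the results that follow was not tested.

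Promoter sequences are shown for 5 members whose RNA rose in siCEP20 samples and whose promoter holds the core motif of TEAD factors, since TEAD binding is the step that links YAP1 and TAZ to their targets. The motif searched was GGAATG, or CATTCC when read on the other strand. Windows of 300 bases, from 250 bases before to 50 bases after a start site, were taken from RefSeq (GRCh38.p14, 5′ to 3′ on the strand of the gene), with the motif in capitals. The table matched 8 of the 10 members, with 12 windows, and no window was printed for CCN1 and TEAD1, which were not matched.
CCN2, chr6:131951323-131951622, minus strand: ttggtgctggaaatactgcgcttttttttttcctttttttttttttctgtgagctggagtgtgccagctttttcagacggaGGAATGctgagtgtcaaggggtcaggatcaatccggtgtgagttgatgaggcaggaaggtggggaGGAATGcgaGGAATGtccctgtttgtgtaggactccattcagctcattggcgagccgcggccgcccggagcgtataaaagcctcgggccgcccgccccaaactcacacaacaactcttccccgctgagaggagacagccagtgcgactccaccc
ANKRD1, chr10:90921038-90921337, minus strand: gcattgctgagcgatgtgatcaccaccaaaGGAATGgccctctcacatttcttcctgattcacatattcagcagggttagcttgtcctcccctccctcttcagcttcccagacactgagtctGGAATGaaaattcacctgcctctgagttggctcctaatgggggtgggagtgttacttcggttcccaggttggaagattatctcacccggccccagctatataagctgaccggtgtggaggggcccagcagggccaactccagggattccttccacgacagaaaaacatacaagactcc
YAP1, chr11:102110197-102110496, plus strand: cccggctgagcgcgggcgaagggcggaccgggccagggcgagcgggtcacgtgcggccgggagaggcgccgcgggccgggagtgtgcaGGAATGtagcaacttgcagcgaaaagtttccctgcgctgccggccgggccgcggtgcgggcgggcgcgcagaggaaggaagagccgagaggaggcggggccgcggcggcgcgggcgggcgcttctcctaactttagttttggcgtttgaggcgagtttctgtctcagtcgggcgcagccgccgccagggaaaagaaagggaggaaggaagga
LATS2, chr13:21061537-21061836, minus strand: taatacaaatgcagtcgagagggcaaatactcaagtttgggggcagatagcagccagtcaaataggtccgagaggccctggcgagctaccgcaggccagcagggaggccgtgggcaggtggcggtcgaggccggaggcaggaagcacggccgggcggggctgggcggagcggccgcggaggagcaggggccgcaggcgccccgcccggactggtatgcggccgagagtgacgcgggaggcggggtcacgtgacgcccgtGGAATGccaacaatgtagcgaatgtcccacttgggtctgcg
AMOTL2, chr3:134374398-134374697, minus strand: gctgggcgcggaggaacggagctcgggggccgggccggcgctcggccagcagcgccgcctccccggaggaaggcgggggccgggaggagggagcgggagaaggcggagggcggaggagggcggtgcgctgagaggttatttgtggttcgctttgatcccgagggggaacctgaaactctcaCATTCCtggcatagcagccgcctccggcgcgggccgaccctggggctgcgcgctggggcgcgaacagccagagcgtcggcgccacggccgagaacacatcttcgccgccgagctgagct

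CCN2 held 3 copies, at 169, 104 and 95 bases before the start site, all on the strand of the gene. ANKRD1 held 2 copies, 220 and 128 bases before the start. The copy of YAP1 began 162 bases before the start, that of AMOTL2 began 69 bases before its second listed start on the other strand, and that of LATS2 began 9 bases after the start, inside the transcribed part. AJUBA and AXL, whose RNA did not pass the test, each held a copy in the second of their windows, and the 2 windows of WWTR1 held none. Among all 35116 promoter windows of the same length, 14.0% held at least 1 copy, 1.37% at least 2 and 0.128% at least 3. A CArG box, the motif of SRF, was in 1.29% of all windows and in 0 member windows. A match describes letters in this window and says nothing of binding in these cells.

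**Figure D1:**
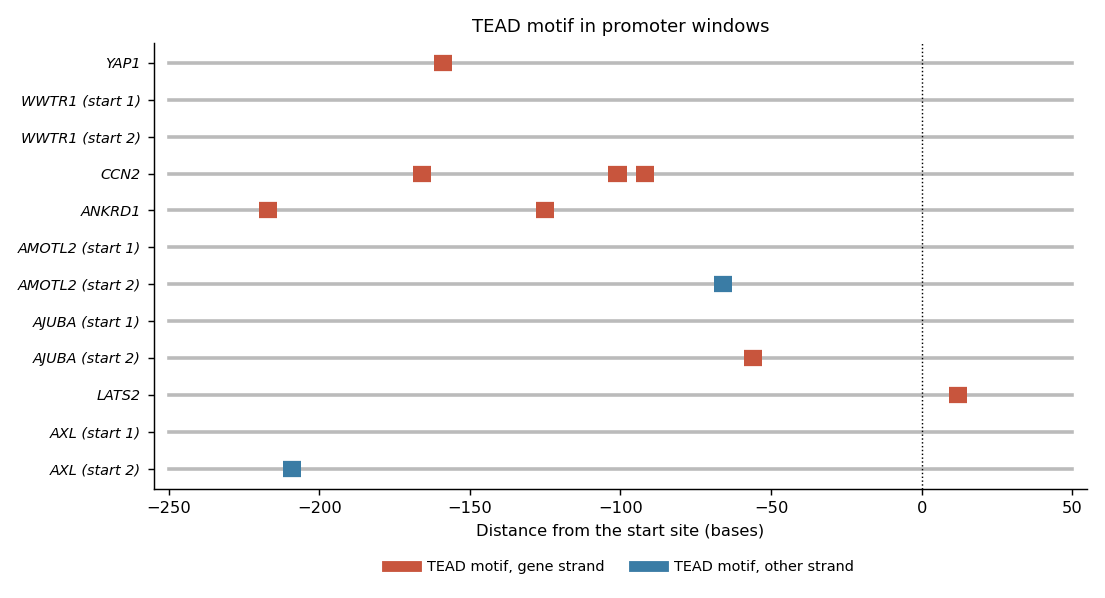
Position of the TEAD core motif in the 12 promoter windows of 8 members, as distance in bases from the start site; bars mark the motif on the strand of the gene (red) or the other strand (blue). CCN2 has 3 bars and ANKRD1 2, and the 2 WWTR1 windows have none.

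In siCEP20 samples 7 of the 10 genes rose (adjusted p-value under 0.05 from limma with Benjamini-Hochberg adjustment over all tested genes), 0 fell and 3 did not pass, against 30.2% of all tested genes that rose and 13.2% that fell. The genes that rose were YAP1, WWTR1, CCN1, CCN2, ANKRD1, AMOTL2 and LATS2. The members were chosen with earlier results of these data known, so the contrast with all tested genes is descriptive only. With a fold change over 1.5 required as well, the threshold of the study, CCN1, ANKRD1 and LATS2 were called higher (3 of 10) and 0 were called lower with a fold change under 0.67, against 11.2% and 4.61% of all tested genes. YAP1 and CCN2, with log2 fold changes of 0.56 and 0.58, lay just under that threshold, and without siCTR replicate 3 both passed it, which made 5 calls. Without siCTR replicate 1, and likewise without siCEP20 replicate 2, the calls were CCN1, CCN2 and ANKRD1. CCN1 and ANKRD1 were the 2 calls under each of the 3 scalings. Called higher among all tested genes were then 894 of 14778 (median-of-ratios), 923 of 14778 (quantile) and 923 of 14737 (length and GC). Under these scalings 6 (median-of-ratios, length and GC) or 7 (quantile) of the 10 genes rose. The share of all tested genes that rose was not computed there, and the 30.2% holds for unscaled TPM only. The median log2 fold change of the 10 genes was 0.50, or 0.36 relative to all tested genes. After the length and GC correction this median was 0.28, or 0.27 relative. Over all tested genes the log2 fold change and transcript length had a Spearman correlation of 0.254, and of -0.0276 after that correction. In 8 of the 10 genes every siCEP20 value lay above every siCTR value, against 38.4% of all tested genes, and in 2 the groups overlapped. Fold changes are on the log2(TPM + 1) scale, which understates the change of low genes.

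**Figure D2:**
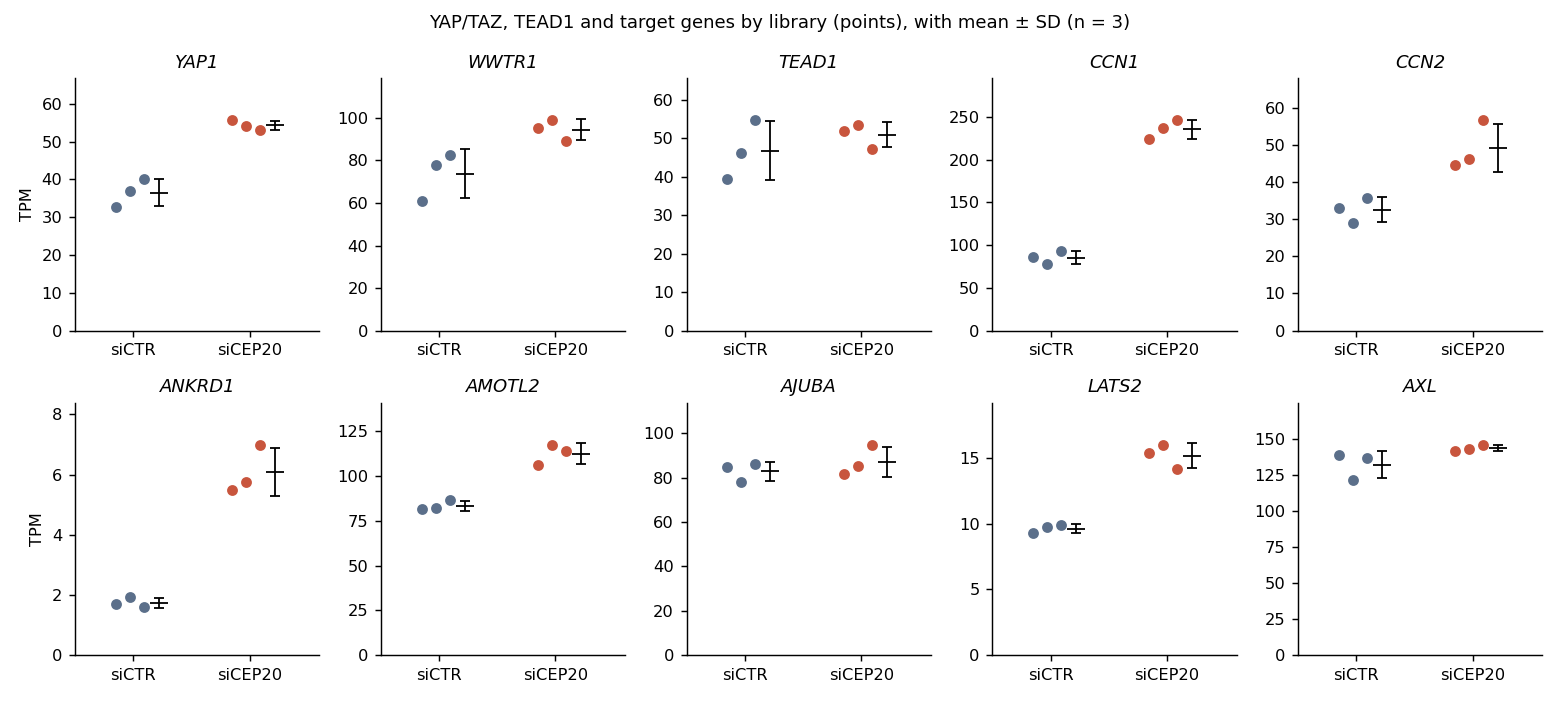
TPM of each of the 10 genes in each library (points; siCTR in blue-grey, siCEP20 in red), with mean and SD (n = 3) beside the points and axes starting at 0. CCN1 and ANKRD1 show the widest gaps between groups, and the groups of TEAD1 and AJUBA overlap.

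The coactivators themselves rose, YAP1 by more than WWTR1. YAP1 (chromosome 11 from 102110447 to 102233424 of hg38) was at 32.7, 36.8 and 40.0 TPM in the siCTR samples and at 55.6, 54.3 and 53.1 TPM in the siCEP20 samples. The groups were separate, and the siCEP20 values lay close together. The mean rose from 36.5 ± 3.66 to 54.3 ± 1.28 TPM (SD, n = 3 each), or by 0.56 on the log2 scale (SE 0.0820, limma adjusted p = 0.00108). It passed the test in all 14 alternatives tried, with log2 fold changes from 0.33 to 0.63. An exon of YAP1 overlaps an unnamed gene on the opposite strand whose mean was 2.45 TPM. The study's methods describe removal of the labelled second strand before amplification, and default settings for alignment. The sources used here state no strand setting for quantification.

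WWTR1 (chromosome 3 from 149517235 to 149736714) was the more abundant coactivator, at 60.8, 77.8 and 82.6 TPM in siCTR and 95.5, 98.8 and 89.3 TPM in siCEP20 samples. All siCEP20 values lay above all siCTR values, with siCTR replicate 1 well below the other two controls. WWTR1 changed by 0.37 on the log2 scale (SE 0.111, limma adjusted p = 0.0284), or 0.23 relative to all tested genes. This change depended on the processing. It passed the test in 8 of 14 alternatives. Without siCTR replicate 1 it was 0.23 (adjusted p = 0.0374, limma). With quantile normalization it passed only narrowly (0.29, limma adjusted p = 0.049998). It failed the test without a filter on low TPM (0.37, adjusted p = 0.109), with eBayes without a trend (0.37, adjusted p = 0.0572), with median-of-ratios scaling (log2 fold change 0.22, adjusted p = 0.0870), after the length and GC correction (0.13, adjusted p = 0.207) and without siCEP20 replicate 1 (0.36, adjusted p = 0.0743) or siCEP20 replicate 2 (0.33, adjusted p = 0.0882).

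A share within each library does not depend on a single scaling factor per library, such as median-of-ratios, but can change under the gene-wise quantile and length and GC adjustments, under which it was not computed. WWTR1 made up 65.0%, 67.9% and 67.4% of the summed TPM of both coactivators in siCTR samples and 63.2%, 64.5% and 62.7% in siCEP20 samples. The share was lower in every siCEP20 sample than in every siCTR sample, although WWTR1 was the larger part in all 6. The difference of the means was -3.26 percentage points (two-sided exact permutation test, p = 0.1, the smallest value that 3 against 3 samples allow). The summed TPM of both genes was 110.2 ± 15.1 in siCTR and 149 ± 5.70 in siCEP20 samples (SD, n = 3 each).

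TEAD1, the member that binds DNA, was not among the genes that passed. TEAD1 (chromosome 11 from 12674421 to 12944737) was at 39.4, 46.2 and 54.6 TPM in siCTR and 51.8, 53.5 and 47.2 TPM in siCEP20 samples. The groups overlapped, and siCTR replicate 3 held the highest value of all 6. Its log2 fold change of 0.13 equalled the median of all tested genes to 2 decimals, with a 95% interval from -0.13 to 0.39 (SE 0.115, limma adjusted p = 0.394). It was 0.05 with quantile normalization but -0.02 with median-of-ratios scaling and -0.16 after the length and GC correction, none past the threshold. It was 0.02 without siCTR replicate 1 and 0.25 without siCTR replicate 3, again not past it.

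The paralogs of TEAD1 rose. TEAD2 was at 34.3, 38.4 and 40.1 TPM in siCTR and 68.7, 65.0 and 61.8 TPM in siCEP20 samples, a rise of 0.78 on the log2 scale (SE 0.0786, limma adjusted p = 0.000213). TEAD4 rose from 28.3 ± 1.70 to 40.1 ± 0.724 TPM (log2 fold change 0.49, adjusted p = 0.00101). TEAD3, the least abundant, rose from 6.74 ± 0.396 to 9.15 ± 0.696 TPM (0.39, adjusted p = 0.0142), a change that did not pass with median-of-ratios scaling (0.26, adjusted p = 0.0597), with quantile normalization (0.22, adjusted p = 0.107), after the length and GC correction (0.25, adjusted p = 0.0565) or without siCEP20 replicate 3 (0.34, adjusted p = 0.0514). TEAD2 overlaps CD37, at a mean of 4.75 TPM, on the opposite strand.

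The make-up of the TEAD family differed accordingly. TEAD1 took 36.1%, 39.1% and 41.7% of the summed TPM of TEAD1 to TEAD4 in siCTR samples and 30.5%, 32.1% and 29.6% in siCEP20 samples. The groups were separate, with a difference of -8.24 percentage points (two-sided exact permutation test, p = 0.1, again the smallest value possible). TEAD2 was at 31.5 ± 0.927% in siCTR and 39.4 ± 0.948% in siCEP20 samples (SD, n = 3 each), so that TEAD1 had the largest mean share in siCTR samples and TEAD2 in siCEP20 samples. The shares of TEAD3 and TEAD4 overlapped between groups. The summed TPM of the 4 genes was 119 ± 11.0 in siCTR and 165 ± 5.11 in siCEP20 samples.

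**Figure D3:**
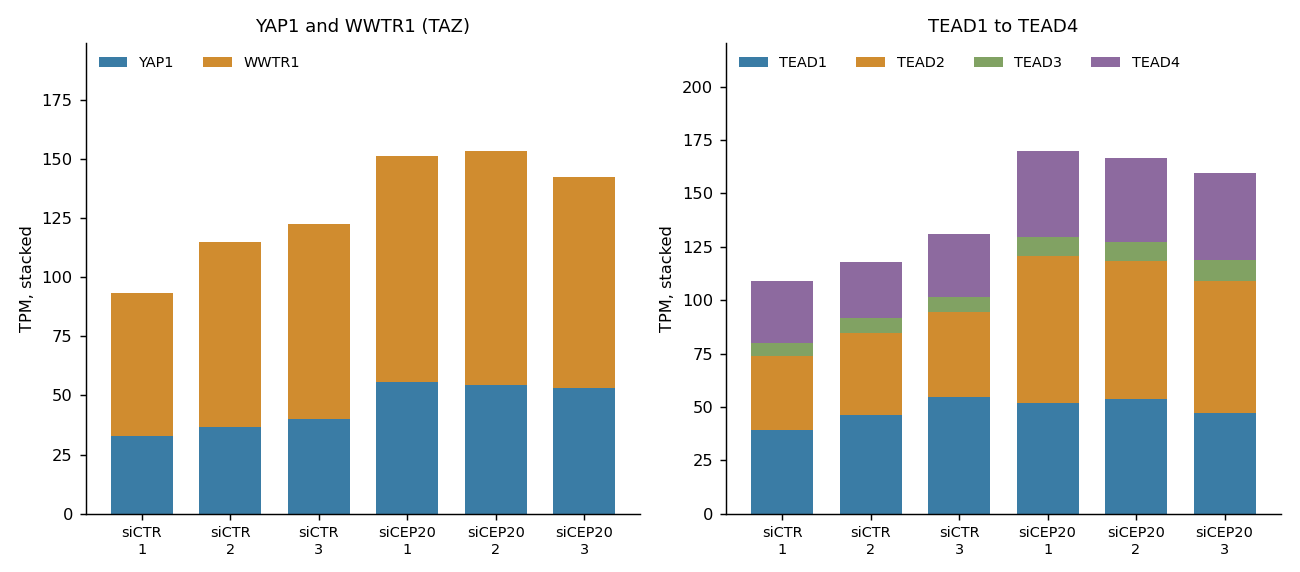
Stacked TPM of YAP1 and WWTR1 (left) and of TEAD1 to TEAD4 (right) in each of the 6 libraries, with the y axis starting at 0. The total is higher in each siCEP20 library, the TEAD1 segment is of similar height in both groups and the TEAD2 segment is taller in siCEP20 libraries.

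Among the targets, the matricellular gene CCN1 had the largest log2(TPM + 1) fold change of the 10 genes, while ANKRD1 led by the ratio of means and with a pseudocount of 0.1. CCN1 (chromosome 1 from 85580761 to 85584589) encodes a secreted protein that binds integrins, and was at 85.6, 78.2 and 92.6 TPM in siCTR and 224, 237 and 246 TPM in siCEP20 samples. The highest control and the lowest siCEP20 value lay far apart. The mean rose from 85.4 ± 7.19 to 236 ± 11.0 TPM (SD, n = 3 each), 2.76 times the control level, and by 1.46 on the log2 scale (SE 0.0732, limma adjusted p = 2.18e-05). Over 14 alternatives it lay between 1.31 and 1.51 and was called higher in each scaling.

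CCN2 (chromosome 6 from 131948176 to 131951372), the paralog of CCN1 and like it a secreted protein of the matrix, was less abundant and changed less. It was at 33.1, 29.0 and 35.8 TPM in siCTR and 44.7, 46.2 and 56.6 TPM in siCEP20 samples. The groups were separate, and siCEP20 replicate 3 stood above the other two. CCN2 rose by 0.58 on the log2 scale (SE 0.111, limma adjusted p = 0.00415) and passed in all 14 alternatives, from 0.43 to 0.64. The ratio of CCN1 to CCN2, chosen for a test after these values were seen, was 2.59, 2.70 and 2.59 in siCTR and 5.02, 5.13 and 4.35 in siCEP20 samples. The ratio groups were separate (p = 0.1, two-sided exact permutation test).

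ANKRD1 (chromosome 10 from 90912096 to 90921087), a nuclear ankyrin repeat protein known from stretched heart muscle, was the least abundant of the 10 genes. It was at 1.68, 1.92 and 1.61 TPM in siCTR and 5.49, 5.75 and 6.99 TPM in siCEP20 samples. Every siCEP20 value was above 5 TPM and every siCTR value below 2 TPM. The mean rose from 1.74 ± 0.164 to 6.08 ± 0.799 TPM, 3.50 times the control level, and by 1.37 on the log2 scale (SE 0.135, limma adjusted p = 0.000196). With a pseudocount of 0.1 in place of 1 the log2 fold change was 1.75.

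AXL (chromosome 19 from 41219223 to 41261766), a receptor tyrosine kinase, was the most abundant member in siCTR samples. It was at 138, 121 and 136 TPM in siCTR and 141, 143 and 146 TPM in siCEP20 samples. The siCEP20 values lay above the control values, but by less than the spread within the controls. A log2 fold change of 0.12 (95% interval from -0.03 to 0.27, limma adjusted p = 0.16) did not pass the test, and it was -0.03 with median-of-ratios scaling and -0.08 after the length and GC correction. An exon of AXL overlaps an unnamed gene at a mean of 1.62 TPM on the opposite strand.

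LATS2, AMOTL2 and AJUBA encode proteins that act on the pathway, and they did not change alike. LATS2 (chromosome 13 from 20973036 to 21061586), a kinase that phosphorylates YAP1 and TAZ and is itself a target gene, was at 9.26, 9.72 and 9.88 TPM in siCTR and 15.4, 16.0 and 14.2 TPM in siCEP20 samples. The groups were separate and tight. LATS2 rose by 0.61 on the log2 scale (SE 0.0852, limma adjusted p = 0.000937), and it passed the test in all 14 alternatives, from 0.39 to 0.65. It was no longer past the fold change threshold with median-of-ratios scaling (0.47), quantile normalization (0.45) or the length and GC correction (0.39). Its paralog LATS1 was at 6.57 ± 0.906 TPM in siCTR and 8.77 ± 0.512 TPM in siCEP20 samples (log2 fold change 0.37, adjusted p = 0.0309), and passed in 4 of 14 alternatives. It was 0.09 after the length and GC correction (limma adjusted p = 0.514), and of the 6 left-out libraries it still passed only without siCTR replicate 3.

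AMOTL2 (chromosome 3 from 134355347 to 134375479), a junction scaffold that binds YAP1, was at 81.4, 82.1 and 86.6 TPM in siCTR and 106, 118 and 114 TPM in siCEP20 samples. The 2 groups were separate. AMOTL2 rose by 0.43 on the log2 scale (SE 0.0616, limma adjusted p = 0.00106), and it passed in all 14 alternatives, with the lowest value, 0.23, after the length and GC correction. Its paralog AMOTL1 rose from 11.5 ± 0.887 to 15.1 ± 0.891 TPM (0.37, adjusted p = 0.0125), which did not pass with median-of-ratios scaling (0.23, adjusted p = 0.0501), quantile normalization (0.21, adjusted p = 0.0610) or the length and GC correction (0.10, adjusted p = 0.306). AMOT, the third gene of this family, stayed below 0.13 TPM in all 6 libraries.

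AJUBA (chromosome 14 from 22971177 to 22982551), a LIM domain protein of cell junctions that inhibits LATS kinases, was at 84.8, 77.8 and 86.0 TPM in siCTR and 81.5, 85.1 and 94.8 TPM in siCEP20 samples. The groups overlapped. AJUBA differed by 0.07 on the log2 scale (95% interval from -0.10 to 0.24, limma adjusted p = 0.482), and it was -0.08 with median-of-ratios scaling and -0.11 after the length and GC correction.

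**Figure D4:**
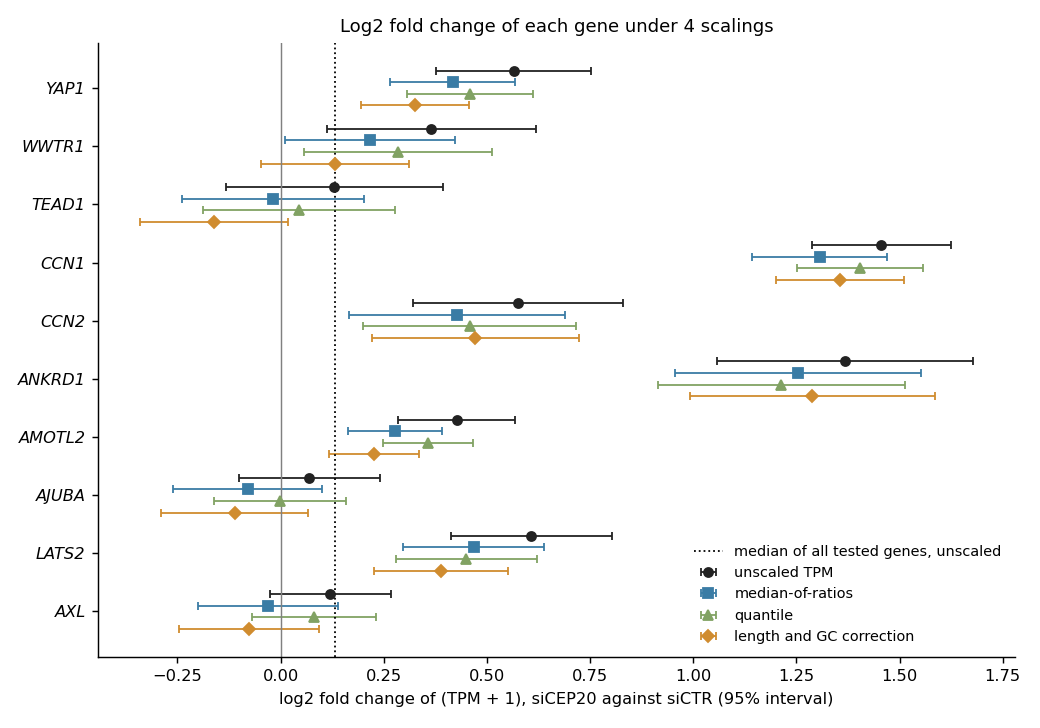
Log2 fold change of (TPM + 1), siCEP20 against siCTR, with its 95% interval from limma, for the 10 genes with unscaled TPM and under 3 scalings; the dotted line is the median of all tested genes (0.13, unscaled). YAP1, CCN1, CCN2, ANKRD1, AMOTL2 and LATS2 lie above 0 under all 4, and TEAD1, AJUBA and AXL have intervals that include 0. The interval of WWTR1 includes 0 only after the length and GC correction.

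Other genes of the pathway were counted in 4 lists that exclude the members and were likewise chosen with earlier results of these data known. Of their 59 genes, 52 were tested, 22 rose, 4 fell and 26 did not pass. Of all tested genes 30.2% rose and 13.2% fell. Of the 52, 12 were called higher and 0 lower, against 11.2% and 4.61% of all tested genes. With median-of-ratios scaling 18 of the 52 rose, 8 fell, 8 were called higher and 0 lower. Of all 14778 tested genes, 894 were then called higher and 1103 lower. With length and GC corrected 18 of the 52 rose, 12 fell, 8 were called higher and 2 lower. Of all 14737 genes tested there, 923 were called higher and 863 lower. The shares of all tested genes that rose or fell under either scaling were not computed. The 30.2% and 13.2% hold for unscaled TPM only. Among 16 further genes of a published YAP/TAZ target signature, 15 were tested, 9 rose, 0 fell and 6 did not pass. The median log2 fold change of these 15 was 0.55, or 0.42 relative to all tested genes and 0.30 relative after the length and GC correction. After median-of-ratios scaling, and likewise after the length and GC correction, 8 of the 15 rose and 2, FJX1 and PTPN14, fell. TGFB2, a ligand of the TGF-beta receptors, rose from 41.2 ± 4.48 to 82.8 ± 3.22 TPM (log2 fold change 1.00, limma adjusted p = 0.000103). NUAK2, an AMPK-related kinase, rose from 81.1 ± 3.92 to 120.5 ± 2.28 TPM (0.57, adjusted p = 0.000233), and CRIM1, a transmembrane protein that binds BMPs, from 138 ± 12.6 to 201 ± 6.59 TPM (0.55, adjusted p = 0.000785), a change of 0.31 with length and GC corrected. TGFB2 overlaps its antisense gene TGFB2-AS1, at a mean of 1.37 TPM.

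The list of TEAD and VGLL genes had a median of 0.78. All 5 of its tested genes rose, TEAD2, TEAD3 and TEAD4 among them, against 30.2% of all tested genes. With each of the 3 scalings 4 of the 5 rose, without TEAD3, and the share of all tested genes was not computed there. VGLL4, which competes with YAP1 for TEAD binding, rose from 19.1 ± 2.38 to 36.4 ± 1.95 TPM (log2 fold change 0.90, limma adjusted p = 0.000324). VGLL3, another cofactor of TEAD, rose from 2.04 ± 0.238 to 4.88 ± 0.167 TPM (0.95, adjusted p = 0.000722). VGLL1 and VGLL2 were listed at or near 0. VGLL4 overlaps ATG7, at a mean of 43.9 TPM, on the opposite strand.

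In the Hippo kinase module 15 of 16 genes were tested, 4 rose, 2 fell and 9 did not pass, shares near the 30.2% and 13.2% of all tested genes. The list median was 0.16, which is 0.03 above that of all tested genes. TAOK3, MAP4K5 and MINK1, kinases that can act on the Hippo module, had log2 fold changes of 0.62, 0.60 and 0.39 with adjusted p-values from 0.00283 to 0.00315 (limma). With length and GC corrected these were 0.41, 0.38 and 0.18, and TAOK3 and MAP4K5, called higher with unscaled TPM, were not called under any of the 3 scalings or without siCTR replicate 1. STK4, a core Hippo kinase, was at 19.8, 26.0 and 28.4 TPM in siCTR and 18.3, 18.5 and 18.0 TPM in siCEP20 samples (-0.40, adjusted p = 0.0314), and MAP4K3 also fell (-0.34, adjusted p = 0.0284). Both falls passed under the 3 scalings and without siCTR replicate 1, but neither passed without any other library (siCTR replicate 2 or 3, siCEP20 replicate 1, 2 or 3) or without a filter on low TPM, and STK4 did not pass with eBayes without a trend. MAP4K5 overlaps ATL1, and MAP4K3 overlaps MAP4K3-DT, on the opposite strand. With length and GC corrected, 3 of these genes rose and 5 fell, with a median of -0.08. The shares of all tested genes were not computed under that correction.

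Among 20 junction and upstream regulators, 17 were tested, 4 rose, 2 fell and 11 did not pass, again near the shares of all tested genes, with a median of 0.16. With length and GC corrected 3 rose and 5 fell, with a median of -0.07, and the shares of all tested genes were not computed there. FAT1, a giant cadherin, rose from 37.9 ± 3.50 to 85.2 ± 8.53 TPM (log2 fold change 1.15, limma adjusted p = 0.000101). WWC1 (KIBRA), a scaffold that activates LATS kinases, rose from 58.6 ± 10.1 to 114 ± 4.44 TPM (0.96, adjusted p = 0.000473). RASSF1, a scaffold that binds the kinases STK3 and STK4, fell from 20.1 ± 0.860 to 15.1 ± 0.702 TPM (-0.39, adjusted p = 0.00498), and LIMD1, a relative of AJUBA, from 25.7 ± 1.35 to 19.0 ± 1.94 TPM (-0.43, adjusted p = 0.00707).

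**Figure D5:**
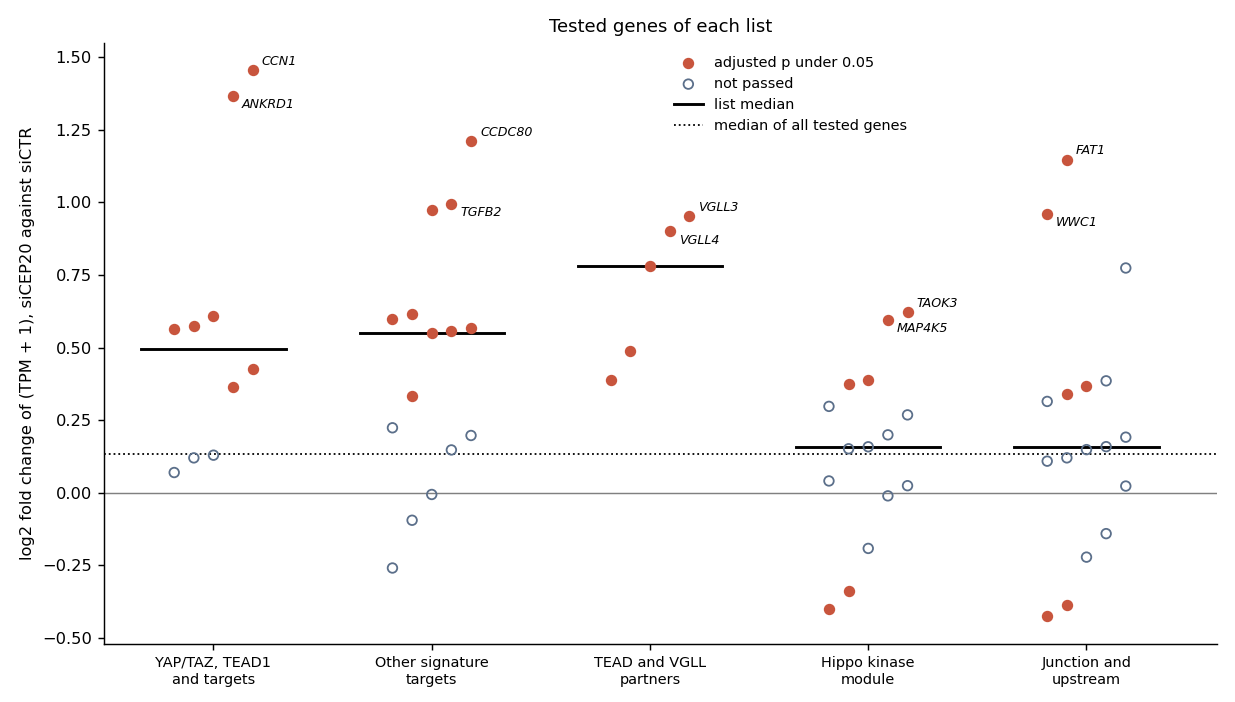
Log2 fold change of (TPM + 1), siCEP20 against siCTR, for each tested gene of the 10 members and of 4 lists; filled red points passed an adjusted p-value of 0.05, open points did not, black lines are list medians and the dotted line is the median of all tested genes (0.13). The 2 genes with the largest log2 fold change in each list are named, all of which passed.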

How the data were processed

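RNA-seq of 3 siCEP20 and 3 siCTR samples of A549 cells was analysed. Per the submitters' processing notes and the study's methods, the authors trimmed reads with fastp 0.20.1, aligned them to hg38 with HISAT2 2.1.0, quantified with StringTie 2.0 and deposited TPM per Ensembl gene as 1 table. No annotation release is given in the sources used here. Depth is unknown, so precision rests on 3 replicates per group.

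Genes were named and placed with GENCODE release 44 (hg38), which held 99.6% of the 60624 IDs. Genes whose mean reached 1 TPM were tested on log2(TPM + 1) by limma 3.58.1 (R 4.3.3) with trended eBayes, unscaled and without a term for replicate number, with Benjamini-Hochberg adjustment. The study's own test needs read counts. A gene rose or fell at an adjusted p-value under 0.05, and was called with a fold change over 1.5 or under 0.67 as well. Genes named were CEP20, the 10 members, their TEAD, LATS and AMOT paralogs and the 3 genes with the smallest adjusted p in each list (1 of the 5 lists is not reported here); FJX1, PTPN14, STK4, MAP4K3, LIMD1 and COL1A1 were added after their values were seen. The members and lists were chosen with earlier results of these data known. Shares within a library were compared by exact permutation tests with scipy 1.17.1. On simulated data with 200 changed genes, 94% were called, with 6 false calls among 14580 unchanged genes. The changed genes were given shifts of at least 2-fold. They were drawn above a minimum level that ANKRD1, VGLL3 and F3 do not reach, so the 94% does not apply to genes that low. The share called among genes with a change as small as that of most members was not tested. Alternatives were another pseudocount, filters and fold thresholds, 3 scalings, eBayes without a trend, a replicate block and each library left out.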

Additional observations from a re-analysis of the deposited data

How the results depend on the processing

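Without siCTR replicate 3 the number of members called higher was 5 in place of 3, over 3 to 5 with each library left out in turn, and 7 with no fold change threshold. Over all 5 pathway lists, 1 of them not reported here, 15 of 62 tested genes were called higher, against 11.2% of all tested genes. The 4 lists described above hold 52 of the 62. Without a fold change threshold 31 passed upward, against 30.2%, and with a 2-fold threshold 3, against 261 of 14778. Called lower were 0, against 4.61%, or 4 without the threshold, against 13.2%. After the length and GC correction 2 (STK4 and LIMD1) were called lower, against 863 of 14737. Of all tested genes, 1659 were called higher, with 894 under median-of-ratios scaling, 923 under quantile normalization, 923 after the length and GC correction, 4457 without a fold change threshold and 261 with a 2-fold threshold; 682 were called lower, with 1103 under median-of-ratios scaling, 1944 without a fold change threshold and 147 with a 2-fold threshold. The cause of the shifts between scalings was not tested. CEP20 passed in all 14 alternatives. With a minimum mean of 5 TPM, ANKRD1 was not tested and the calls were CCN1 and LATS2. Depth limits cannot be given, since TPM holds no counts.

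No pairing by replicate number was seen. The deviations of same-numbered samples from their group means had correlations of 0.157, -0.0614 and -0.0623, against -0.121 to 0.170 for other pairs. Deviations within a group of 3 sum to 0, so these correlations cannot exclude pairing. With the replicate block 1654 genes were called higher and 694 lower, 3 members were called higher, and the differences in the WWTR1 share (-3.26 percentage points) and the TEAD1 share (-8.24) are the same by construction, since each number occurs once per group. Of the genes named, LATS1 did not pass with the block (adjusted p = 0.0502 from limma).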

Other observations

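The level of CCN1 relative to its coactivators was also set side by side, chosen after the values were seen. The ratio of CCN1 TPM to the summed TPM of YAP1 and WWTR1 was 0.915, 0.682 and 0.755 in the siCTR samples and 1.48, 1.55 and 1.73 in the siCEP20 samples, separate groups (two-sided exact permutation test, p = 0.1, the smallest value that 3 against 3 samples allow). The ratio restates the CCN1, YAP1 and WWTR1 values given above and is not a separate result. A single scaling factor per library leaves this ratio as it is, while gene-wise adjustments can change it. CCN1 was below the summed coactivators in every siCTR library and above them in every siCEP20 library.

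Of the further targets, F3, the gene of tissue factor, rose from 1.93 ± 0.348 to 4.74 ± 0.577 TPM (log2 fold change 0.97, adjusted p = 0.00132 from limma). CCDC80, a secreted matrix protein, was at 3.60, 7.54 and 7.59 TPM in siCTR and 16.4, 15.7 and 13.4 TPM in siCEP20 samples (1.21, adjusted p = 0.0039). Both were named after their values were seen.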
